A study of Mus musculus with 9 samples.

Results

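Round cells picked on day 14 of a culture of adipose tissue-derived stromal vascular fraction (SVF) were compared with the beating colonies of day 28, to see which parts of the muscle programme were already present in the round cells and which appeared only in the colonies. The comparison covers 9787 of 33323 transcript clusters of the array, a transcript cluster being a set of probes that the array reads as 1 value, for a whole gene or a piece of it. These were chosen by their measured level: a mean log2 signal of 5 or more on the 4 beating arrays, which 8294 clusters had, or a log2 signal of 5 or more on the round array, which 6085 had. Both conditions held for 4592 clusters, the beating condition alone for 3702 and the round condition alone for 1493. The round sample was 1 pool of 6 cells without a replicate, so the difference between round and beating samples carries no p-value and is described by rank within each array.

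The cells came from subcutaneous adipose tissue of C57BL6/J mice aged 10 weeks and were grown in the same minimal medium on uncoated plates, with no inducing agent in any group. The round group was picked by its form with a robotic micromanipulator on day 14 (n = 1). The beating group was the beating colonies picked by hand on day 28, the colonies of several dishes from the same lot of SVF being combined into each sample (n = 4), and the non-beating group was the remaining cells of the dishes on that day (n = 4). A pool of picked cells and whole colonies differ in day, in cell number, in the amount of RNA amplified and in the other cell types that the colonies held. These differences cannot be told apart in this design. In such mixed samples fewer cells of a type and less RNA per cell cannot be told apart either.

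A striated muscle cell builds sarcomeres, in which thick filaments of myosin slide along thin filaments of actin that are anchored at the Z-disc. In skeletal muscle, the myogenic factors of the MyoD family together with Mef2 proteins switch these genes on as myoblasts leave the cell cycle and fuse. Heart muscle cells share much of the contractile apparatus but do not fuse, use Nkx2-5, Gata4 and Tbx5 among their regulators, and pass the beat on through connexin channels.

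Rank was the percentile of a cluster among all 33323 clusters of the same array, which no rescaling of an array that keeps the order can change. A gene was called high on day 28 when it reached percentile 75 or more on all 4 beating arrays. Among these genes, those at percentile 75 or more on the round array were called early, those from 50 to below 75 intermediate, and those below 50 late. Signals include background, so a rank in the lower part of an array is given as a value and not as evidence that a gene was expressed. The round array was shaped differently from the others: its median log2 signal was 3.54 against 3.08 to 3.17 on the 8 arrays of day 28, and a log2 signal of 5 stood at percentile 81.7 against 74.5 to 75.8 on the beating arrays. Spearman's rho over all clusters was 0.783 to 0.808 between the round and the beating arrays and 0.951 to 0.969 among beating arrays. The level that selects the members is therefore stricter on the round array in terms of rank. Just inside it stood Golga7 (mean beating log2 signal 5.00, round 4.20), Hivep2 (5.00 and 4.84) and Fam174b (5.00 and 4.35), and just outside it S100pbp (5.00 and 3.87), Alkbh5 (5.00 and 4.77) and Irf2bp2 (4.63 and 5.00), each differing from the limit beyond the second decimal only.

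Most muscle genes that were high in the beating colonies were already high in the round cells. Of 241 genes in 14 muscle lists, 230 had a cluster of 1 gene symbol, 142 belonged to the comparison and 124 were high on day 28, and of these 124 genes 115 were early, 6 intermediate and 3 late. The 6 intermediate genes were Dock1, Dtna, Gja1, Myf6, Pygm and Sgcb, and the 3 late genes were Myl2, Gja5 and Klhl31. Over all 4708 genes of 1 symbol that were high on day 28, 65.4% were early and 9.64% late, against 92.7% and 2.42% of the muscle genes. No muscle gene was in the top 25% of the round array and in the lower part, below percentile 50, of all 4 beating arrays. Over the whole array 60 of 19938 genes of 1 symbol had this pattern. At so small a share, its absence among 230 genes does not set the muscle genes apart. Because both the classes and the choice of members use these signals, the counts are descriptions and were not tested.

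**Figure D1:**
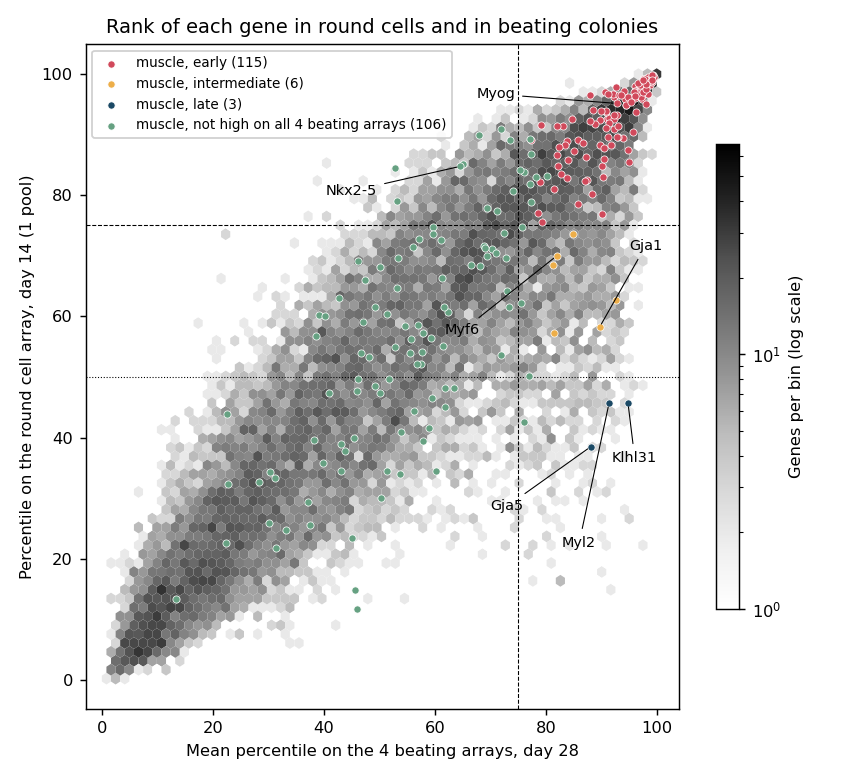
Percentile on the round cell array (y, day 14, 1 pool) against mean percentile on the 4 beating arrays (x, day 28) for 19938 genes of 1 symbol, shown in grey as genes per bin on a log scale, with the 230 muscle genes as coloured points. Dashed lines stand at percentile 75 and the dotted line at 50, and the 115 early muscle genes fill the upper right corner while Myl2, Gja5 and Klhl31 lie below the dotted line.

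The share of early genes rose with the level on day 28, so muscle genes were set beside other genes of like level. With a mean beating percentile of 75 to 90, 31 of 37 muscle genes were early, 83.8%, against 58.0% of 2909 genes outside the muscle lists. From 90 to 95 these were 36 of 39 muscle genes, 92.3%, against 69.6% of 1073. From 95 to 99 all 41 muscle genes were early, against 87.3% of 535 other genes, and from 99 upward all 7, against 97.0% of 67. Genes outside the lists that beating samples had at a higher level than non-beating ones lay between in the 3 lower classes, with 72.5% of 131, 88.6% of 79 and 97.3% of 37. From 99 upward all 5 of them were early, as were the muscle genes. Muscle genes that were likewise higher in beating samples were early for 84.6% of 26, 90.6% of 32, all 37 and all 7. Set beside the other genes chosen in this way, the muscle genes thus differed mainly in the lowest class.

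**Figure D2:**
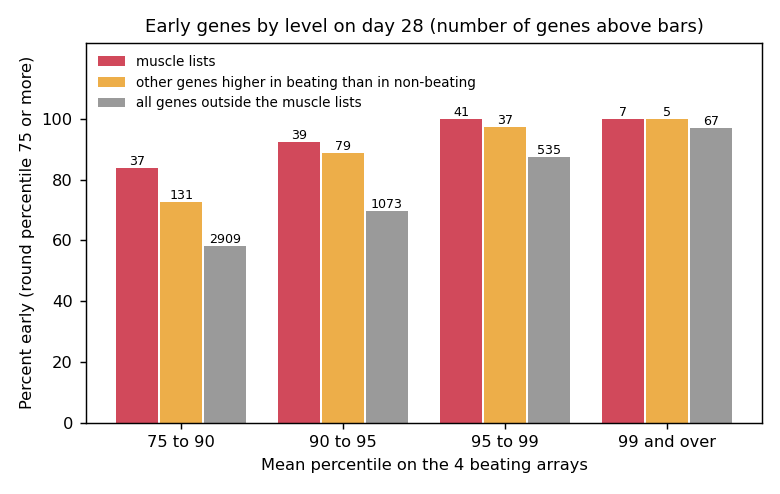
Percent of genes that were early (y) by mean percentile on the 4 beating arrays (x), for the muscle lists, for other genes called higher in beating against non-beating samples, and for all genes outside the muscle lists, with the number of genes above each bar. The muscle bars stand highest in the 3 lower classes of level, 83.8% against 58.0% of all other genes in the lowest.

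To see which of these genes belonged to the beating colonies rather than to the whole dish, beating and non-beating samples of day 28 were compared with limma, a linear model with moderated variances fitted over all clusters (two-sided, Benjamini-Hochberg adjusted p under 0.05). This test used no round value, the number of arrays limits its precision, and since the labels do not say whether the samples came from separate lots, its p-values measure the spread between these samples. Over all clusters 940 were higher in beating samples, 2.82%, and 1114 lower, 3.34%. Of the 230 muscle genes 136 were higher and 1, Tbx5, was lower. Of the 124 muscle genes high on day 28, 102 were higher in beating samples, and 95 of these were early, 4 intermediate and 3 late. The same 2 conditions held for 354 genes over the whole array, of which 85.0% were early and 3.11% late.

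**Figure D3:**
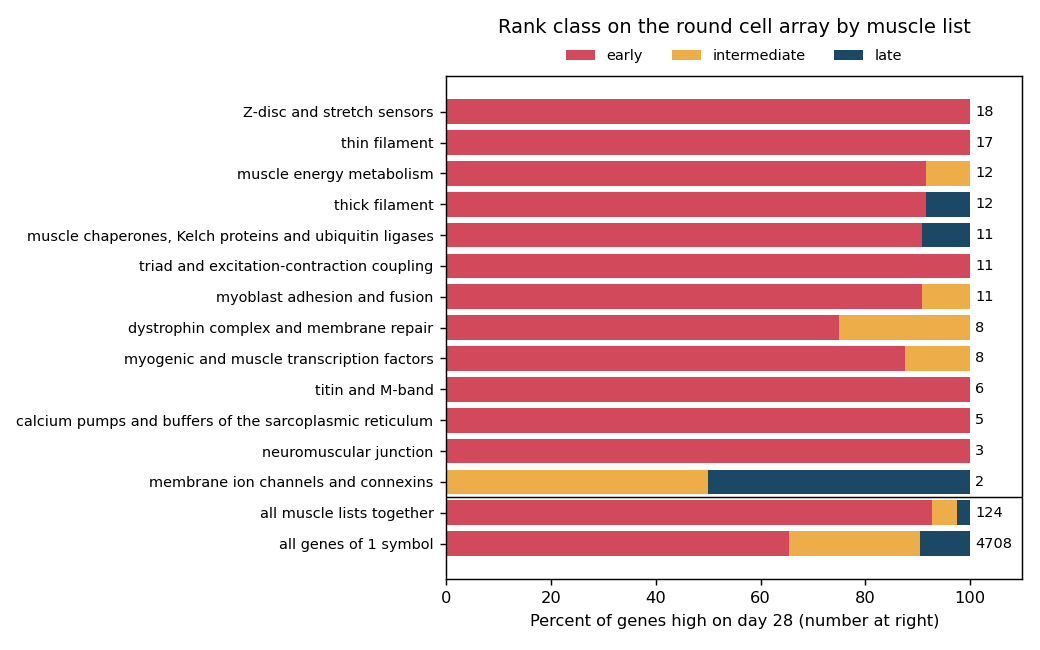
Share of early, intermediate and late genes on the round array (x, percent) among the genes that were high on all 4 beating arrays, for each muscle list with such genes and, under the line, for all muscle lists and all genes of 1 symbol, with the number of genes at the right of each bar. The bars of 6 lists are early throughout, and the membrane ion channels and connexins, with 2 genes, have none.

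The order of ranks within the top of the arrays was not the same in round cells as in colonies. Of the 124 muscle genes high on day 28, 58 stood at a higher percentile on the round array than on all 4 beating arrays, 28 within the range of the 4 and 38 below all 4. Over all 4708 genes high on day 28, the round rank was above all 4 beating ranks for 25.4% and below all 4 for 62.6%. The median difference, beating minus round, was -0.45 percentile points for these muscle genes and 4.17 for all genes high on day 28. A rank can rise because other genes of the array are lower, and several abundant genes were lower on the round array, as described further on.

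The myogenic regulators were among the genes with a higher rank in the round cells. Myog, which encodes myogenin, a factor that drives the terminal differentiation of myoblasts, had a log2 signal of 7.57 on the round array, and 7.48, 8.18, 7.27 and 7.97 on beating arrays 1 to 4. Its round value lay inside the beating values, and all 5 lay above the non-beating values of 3.67 to 4.03 (beating minus non-beating 3.83, SE 0.20, n = 4 each, limma adjusted p = 2.7e-05). By rank, Myog stood at percentile 95.1 in round cells and at 91.2 to 94.3 in beating samples.

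Myod1, the founding member of the family, was at 6.27 in round cells and at 5.79, 6.10, 5.46 and 5.83 in beating samples, so that the round value was above all 4 (percentile 91.4 against 78.8 to 84.3). Myf5, an early factor of the same family, was at 5.94 in round cells and 5.04, 4.69, 3.69 and 4.09 in beating samples, which reached percentile 75 on 1 array only, and its difference from non-beating samples did not pass the test (1.01, SE 0.27, limma adjusted p = 0.072, and 0.0243 without beating replicate 3). Myf6, the factor of maturing fibres, ran the other way: it was at 4.30 in round cells, where it was intermediate, and at 7.16, 5.98, 5.03 and 5.42 in beating samples, where the highest and lowest arrays differed by more than the round value and the lowest. Of the 4 factors, Myf5, Myod1 and Myog thus had a higher rank in round cells than on any beating array and Myf6 a lower one.

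Mef2c, a partner of the myogenic factors that is also used in the heart, was at 9.34 in round cells and at 10.21, 9.85, 10.17 and 10.29 in beating samples. Its percentile in round cells, 97.8, lay within the beating range of 97.7 to 98.3, far above the 79.0 to 87.8 of the non-beating samples (difference 4.01, SE 0.24, limma adjusted p = 6e-05). Mef2a and Mef2d were also early, at percentiles 94.9 and 94.0 in round cells. Vgll2, a cofactor of the Tead factors in muscle, was at 6.14 in round cells and between 4.48 and 4.98 in beating samples, above all 4. Tead4 itself was early at percentile 82.7, within its beating range, as was Eya4 at 88.6, a transcriptional coactivator of muscle precursors, although neither Eya4 nor Mef2d passed the test against non-beating samples (limma adjusted p = 0.29 and 0.75). Smyd1, a methyltransferase needed for sarcomere assembly, missed percentile 75 on beating array 3 alone (log2 signal 4.95) and stood at 5.01 in round cells, percentile 81.8. The satellite cell factors were not among the high genes: Pax7 was at 4.07 in round cells and 3.20 to 3.61 in beating samples, Pax3 at 3.77 and 3.32 to 3.87. Lbx1 (4.38 in round cells), Eya1 (2.74), Eya2 (3.67), Six4 (3.23), Msc (3.33) and Dmrt2 (2.96) were below percentile 75 on all 5 arrays. In all, 7 of 8 high members of the 19 transcription factors measured were early and 8 of the 19 were higher in beating than non-beating samples, with none lower.

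**Figure D4:**
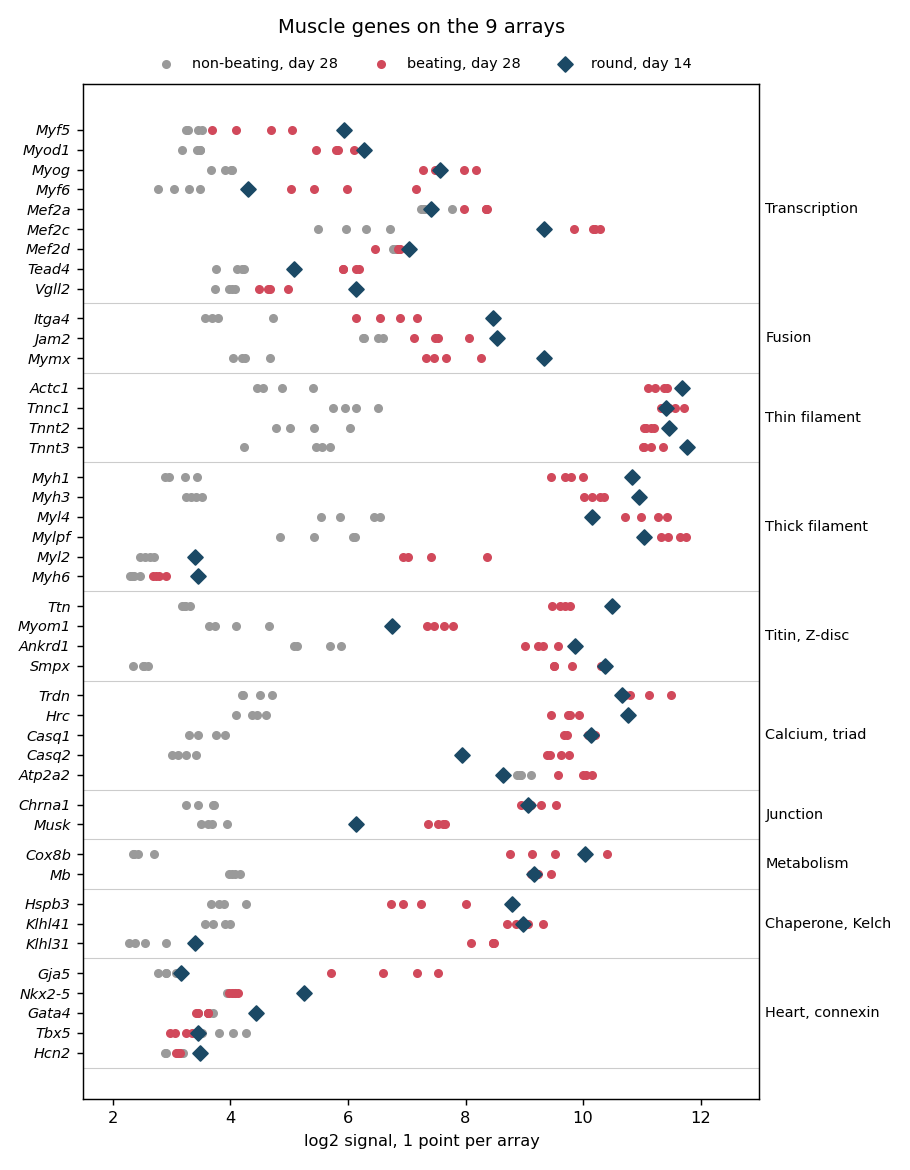
Log2 signal (x) of 43 muscle genes, grouped by role, on the 9 arrays, with 1 point per array: the round pool as a diamond, the 4 beating arrays in red and the 4 non-beating arrays in grey. For most contractile genes the diamond lies among or beyond the red points and far from the grey ones, while for Myl2, Klhl31 and Gja5 it lies beside the grey points.

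Genes of myoblast adhesion and fusion were mostly early, and Mymx, Itga4 and Jam2 ranked above all 4 beating arrays. Mymx, which encodes the fusion micropeptide myomixer, was at 9.34 in round cells and at 8.27, 7.67, 7.32 and 7.47 in beating samples, above all 4 of them, while non-beating samples lay between 4.04 and 4.67. Its partner Mymk, or myomaker, was lower in round cells than on any beating array, at 6.96 against 9.01, 9.23, 8.66 and 9.16, although it too was early. The integrin subunit gene Itga4 was at 8.47 in round cells and 6.55, 7.17, 6.13 and 6.89 in beating samples. Jam2, a junctional adhesion molecule, was at 8.54 and between 7.13 and 8.06. Both lay above the beating samples, which in turn lay above the non-beating ones (Itga4 difference 2.75, SE 0.30, limma adjusted p = 0.0021; Jam2 difference 1.13, SE 0.19, adjusted p = 0.012, a call that the methods' t-test after adjustment did not make, at 0.0551). Itgb1, the widely expressed integrin beta chain, was early but lower in round cells, at 8.54 against 10.21 to 10.70. Of the 11 high members of this list 10 were early, and Dock1, which acts downstream of fusion receptors, was intermediate. By limma 5 of the 11 were higher in beating than non-beating samples, against 354 of all 4708 genes high on day 28. The round rank was above all 4 beating arrays for 3 of the 11 and below all 4 for 5. Over all genes high on day 28 these shares were 25.4% and 62.6%. Mymk was named after its values were seen.

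All 17 thin filament genes that were high on day 28 were early, and 8 of them had a higher rank in round cells than on any beating array. Actc1, cardiac alpha-actin, was at 11.68 in round cells and at 11.42, 11.38, 11.11 and 11.23 in beating samples, and the non-beating samples were at 4.45 to 5.41 (difference 6.46, SE 0.20, limma adjusted p = 1.3e-06). Tnnt2, cardiac troponin T, was at 11.47 in round cells and between 11.03 and 11.21 in beating samples. Tnnt3, the troponin T of fast skeletal muscle, was at 11.76 and between 11.02 and 11.36, so cardiac and fast skeletal forms were both high in the pool. Tnnc1, troponin C of heart and slow muscle, was at 11.41, inside the beating values of 11.32 to 11.71. These 4 genes lay at percentiles 99.6 to 99.8 on the round array.

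The stretches of sequence before the start of Actc1 and Tnnt2, as early genes, and of Myl2 and Gja5, as late ones, are shown so that the genes at both ends of the comparison can be seen with the letters of muscle motifs. They are the 250 bases before the first start that RefSeq lists for each gene, in the GRCm38.p6 assembly, 5′ to 3′ on the gene's strand. Capitals mark an E-box written CAGCTG, to which myogenic factors bind, a match to the MEF2 consensus, or a CArG box, the site of serum response factor, searched on both strands.
Tnnt2, chr1:135836084-135836333, plus strand: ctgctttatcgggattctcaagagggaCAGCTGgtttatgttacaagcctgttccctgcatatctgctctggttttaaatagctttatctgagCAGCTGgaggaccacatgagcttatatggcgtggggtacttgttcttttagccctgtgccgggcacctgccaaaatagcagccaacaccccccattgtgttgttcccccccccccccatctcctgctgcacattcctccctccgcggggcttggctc
Actc1, chr2:114052876-114053125, minus strand: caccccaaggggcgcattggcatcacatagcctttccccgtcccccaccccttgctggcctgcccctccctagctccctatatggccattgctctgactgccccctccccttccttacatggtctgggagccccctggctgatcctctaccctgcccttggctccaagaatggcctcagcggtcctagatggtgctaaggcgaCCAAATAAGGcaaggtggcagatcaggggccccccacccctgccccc
Myl2, chr5:122092474-122092723, plus strand: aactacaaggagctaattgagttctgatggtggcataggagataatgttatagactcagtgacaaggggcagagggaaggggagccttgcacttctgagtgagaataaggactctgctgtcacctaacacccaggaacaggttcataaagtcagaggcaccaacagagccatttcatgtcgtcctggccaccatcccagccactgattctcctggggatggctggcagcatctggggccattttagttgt
Gja5, chr3:97032152-97032401, plus strand: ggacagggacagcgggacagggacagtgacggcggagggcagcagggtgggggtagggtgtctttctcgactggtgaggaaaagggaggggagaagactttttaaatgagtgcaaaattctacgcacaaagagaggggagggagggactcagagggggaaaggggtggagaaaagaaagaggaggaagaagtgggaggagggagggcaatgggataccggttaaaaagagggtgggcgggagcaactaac
The Tnnt2 stretch held 2 copies of CAGCTG and the Actc1 stretch 1 CArG box, and these letters were not in the stretches of Myl2 and Gja5. Among the 27025 stretches of the same length, with 1 taken for each gene, 12.8% held CAGCTG, 3.01% the MEF2 consensus and 1.40% a CArG box. RefSeq lists another start for Tnnt2 and for Myl2, which was not searched. Of the 115 early muscle genes 87 had an entry, 75.7%, under the 80% set for such a check, so no share over the early genes is given.

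Among thick filament genes 11 of 12 were early and Myl2 was late. Myh3, the embryonic myosin heavy chain, was at 10.95 in round cells and at 10.29, 10.15, 10.01 and 10.35 in beating samples, and Myh1, an adult fast chain, at 10.83 and 10.00, 9.45, 9.69 and 9.80. Both exceeded all 4 beating arrays. The other high heavy chains, named after their values were seen, split: Myh8, the perinatal chain, also ranked above all 4 (percentile 97.2 against 95.3 to 96.7), Myh4 lay within the beating range (91.3 against 90.7 to 96.4), and Myh2 and the slow and cardiac chain Myh7 lay below it (87.7 against 88.9 to 93.0 and 80.2 against 85.7 to 90.7). The light chains Mylpf and Myl4 were early, at 11.04 and 10.16 in round cells, yet slightly below all 4 beating arrays, whose lowest values were 11.33 and 10.71.

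Myl2, the regulatory light chain of ventricle and slow muscle, was the exception. It was at 3.39 in round cells, below the array's median, and at 8.36, 6.93, 7.02 and 7.41 in beating samples. All 4 beating values lay above the non-beating values of 2.46 to 2.70 (difference 4.84, SE 0.29, limma adjusted p = 5.4e-05). By rank the round value, at percentile 45.6, lay far below the beating arrays, at 89.3 to 94.8. Myh6, a heavy chain of heart muscle, was dim on all arrays: 3.45 in round cells, 2.68 to 2.90 in beating and 2.29 to 2.46 in non-beating samples. The difference between beating and non-beating samples, 0.41 (SE 0.07), passed the test at low signal (limma adjusted p = 0.013).

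The giant proteins and the Z-disc were early without exception among the high genes, 6 of 6 in the titin and M-band list and 18 of 18 in the list of Z-disc proteins and stretch sensors. Ttn, which encodes titin, the spring that spans the sarcomere, was at 10.49 in round cells and between 9.47 and 9.77 in beating samples. Non-beating samples lay between 3.17 and 3.32 (difference 6.40, SE 0.08, limma adjusted p = 1.4e-08). Myom1 and Myom3, which crosslink thick filaments at the M-band, stood at percentiles 93.2 and 89.0 in round cells and Obsl1 at 88.9, each above all 4 beating arrays. Smpx, a small muscle protein, was at 10.37 in round cells and 10.30, 9.82, 9.50 and 9.50 in beating samples. The stretch-responsive Ankrd1 was at 9.87 and between 9.01 and 9.57, and Pdlim3, an adaptor of the Z-disc, at 9.98 and between 8.80 and 9.82. Nexn, an actin-binding protein of the Z-disc, was at 9.70 and between 9.01 and 9.70. Of the 18 high genes of the list 11 ranked above all 4 beating arrays, and 17 were higher in beating than non-beating samples by limma.

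The apparatus that couples excitation to calcium release was early too, with 11 of 11 high genes in the triad list and 5 of 5 in the list of pumps and buffers of the sarcoplasmic reticulum. In the triad list 7 of 11 ranked above all 4 beating arrays, while in the pump and buffer list 4 of 5 ranked below all 4. Hrc, a calcium-binding protein of the reticulum, was at 10.77 in round cells and 9.93, 9.78, 9.45 and 9.74 in beating samples. Bin1, which shapes T-tubules, was at 8.25 and between 7.19 and 7.84. Jph1, which ties the T-tubule to the reticulum, was at 9.20, inside the beating signals of 8.97 to 9.61. By rank it was above all 4 beating arrays (percentile 97.6 against 96.2 to 97.4). The skeletal calsequestrin Casq1 was at 10.14, within the beating signals of 9.68 to 10.20, and by rank also above all 4 (98.6 against 97.4 to 98.2). The cardiac calsequestrin Casq2 was at 7.94 in round cells and at 9.76, 9.39, 9.43 and 9.62 in beating samples, below all 4. Atp2a2, the calcium pump of heart and slow muscle, was at 8.64 against 9.57 to 10.16, below the non-beating mean of 8.96 as well, although its percentile, 96.8, was above the non-beating 95.9 to 96.4. Srl, which encodes sarcalumenin, was at 5.67 against 7.30 to 7.61.

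Trdn, which encodes triadin, was represented by a cluster at 10.66 in round cells and 11.50, 11.13, 10.79 and 10.71 in beating samples, and it is the muscle gene with the most clusters of its symbol, 19. Of these, 12 were high on day 28, and on the round array 9 of the 12 were early, 1 was intermediate and 2 were late. The log2 signals of the 12 ranged from 1.82 to 10.66 in round cells. A cluster at 8.41 on the beating mean stood at 1.82 in round cells, and another at 7.84 stood at 2.70, so parts of the same gene fell in different classes. The positions of the clusters within the gene were not used here.

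At the neuromuscular junction, 3 of 12 genes were high on day 28 and all 3 were early. Chrna1, the alpha subunit of the muscle acetylcholine receptor, was at 9.07 in round cells and 9.54, 9.29, 8.94 and 9.12 in beating samples. Chrng, the fetal gamma subunit, was at 5.79 against 5.95 to 6.51, with a round percentile of 89.0 above the beating 83.1 to 87.3. Musk, the receptor kinase that organises the synapse, was at 6.14 and between 7.37 and 7.65, and its percentile of 90.9 lay just below the beating range of 91.5 to 92.8, although among clusters of 1 symbol its round rank was above the beating mean.

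In the dystrophin complex 6 of 8 high genes were early, 75% against 65.4% of all genes high on day 28. Among them was Dmd, at 6.35 in round cells and 7.20 to 7.64 in beating samples. Its relative Utrn (percentile 91.1), the syntrophin gene Sntb1 (88.2) and the sarcospan gene Sspn (87.9) were early too. Sgcb, a sarcoglycan gene, and Dtna, which encodes a dystrobrevin, were intermediate. Of the 4 high genes that limma also called higher in beating samples, 2 were early and 2 intermediate. Over the whole array 85.0% of 354 such genes were early. The mean of the list was 4.94 in round cells, 5.84 to 5.99 in beating and 4.76 to 4.92 in non-beating samples. In muscle metabolism 11 of 12 were early and Pygm, muscle glycogen phosphorylase, was intermediate. Cox8b, a muscle form of a cytochrome c oxidase subunit, was at 10.04 in round cells and at 10.40, 9.52, 8.76 and 9.13 in beating samples, and non-beating samples were at 2.35 to 2.70. Mb, myoglobin, was at 9.17 and between 9.11 and 9.46, Cox6a2, another muscle subunit of the oxidase, at 8.93 and between 8.82 and 9.77, and Eno3, muscle enolase, at 7.92 and between 7.96 and 8.51. These 4 genes rose in beating against non-beating samples, with limma adjusted p from 5.9e-08 for Mb to 8.8e-05 for Cox6a2.

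Among muscle chaperones, Kelch proteins and ubiquitin ligases 10 of 11 high genes were early. Hspb3, a small heat shock protein of muscle, was at 8.79 in round cells and at 8.0, 7.25, 6.74 and 6.94 in beating samples, and its round percentile of 97.0 was above all 4 beating percentiles of 88.4 to 93.9. Klhl41, a Kelch protein of the sarcomere, was at 8.98, within the beating values of 8.71 to 9.32, and Cryab and Hspb1, small heat shock proteins, were early at percentiles 95.9 and 93.7. Klhl31, another Kelch protein of muscle, was called late, at 3.39 in round cells and 8.48, 8.09, 8.47 and 8.46 in beating samples. This call rested on the choice of cluster. A second cluster of Klhl31 was at 5.14 in round cells, percentile 83.3, and at 5.82 to 6.79 in beating samples, and by that cluster the gene was early.

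Among the muscle lists that had genes high on day 28, that of channels and connexins was the one without an early gene, although only 2 of its 16 measured members were high. Kcnn3, a calcium-activated potassium channel gene named after its values were seen, missed percentile 75 on beating array 2 alone. It was at 5.12 in round cells, percentile 83.2, and at 5.97, 4.91, 5.63 and 5.91 in beating samples, with the round rank inside the beating range, and it was higher than in non-beating samples (difference 2.46, SE 0.23, limma adjusted p = 0.00077). Gja5, which encodes connexin 40, the gap junction channel of atrium and conduction system and of arterial endothelium, was late. It was at 3.16 in round cells, percentile 38.5, and at 5.71, 7.17, 6.59 and 7.54 in beating samples, while non-beating samples were at 2.77 to 3.08 (difference 3.84, SE 0.35, limma adjusted p = 0.00077). The round value lay beside the non-beating values and under all 4 beating ones. Of the 10 endothelial genes measured none was higher or lower in beating than non-beating samples by limma, and Cdh5, an endothelial cadherin named after its values were seen, was at 3.14 in round cells, 4.15, 6.98, 7.76 and 8.37 in beating and 6.61 to 8.10 in non-beating samples. What part endothelial cells have in the Gja5 signal was not tested. Gja1, connexin 43, was intermediate, at 3.83 in round cells, 6.93 to 7.09 in beating and 7.11 to 7.58 in non-beating samples. Hcn2, a pacemaker channel gene, was dim on all arrays, at 3.48 in round cells, 3.08 to 3.14 in beating and 2.88 to 3.19 in non-beating samples.

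Of the 11 heart transcription factors and natriuretic peptides none was high on day 28, none was higher in beating samples by limma and 9 of 11 ranked above all 4 beating arrays in the round cells, against 40.1% of all genes of 1 symbol. Of these 9, Nkx2-5 and Gata6 reached percentile 75 in round cells. Nkx2-5 was at 5.26 in round cells, percentile 84.7, and at 4.13, 4.08, 3.98 and 4.02 in beating samples, next to 3.95 to 4.08 in non-beating ones. Gata4 was at 4.44 in round cells, 3.42 to 3.62 in beating and 3.44 to 3.70 in non-beating samples, and its round percentile of 72.7 did not reach 75. Tbx5 was at 3.45 in round cells, 2.97 to 3.34 in beating and 3.52 to 4.26 in non-beating samples. It was lower in beating than non-beating samples (difference -0.75, SE 0.16, limma adjusted p = 0.036), a call that was lost without each of 6 single arrays, with adjusted p from 0.0625 to 0.0997 in those fits, and held without beating replicate 4 or non-beating replicate 2. The methods' t-test after adjustment did not make this call either (0.105). Of 9 cartilage genes, which none of the groups was picked for, 7 also ranked above all 4 beating arrays in the round cells.

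**Figure D5:**
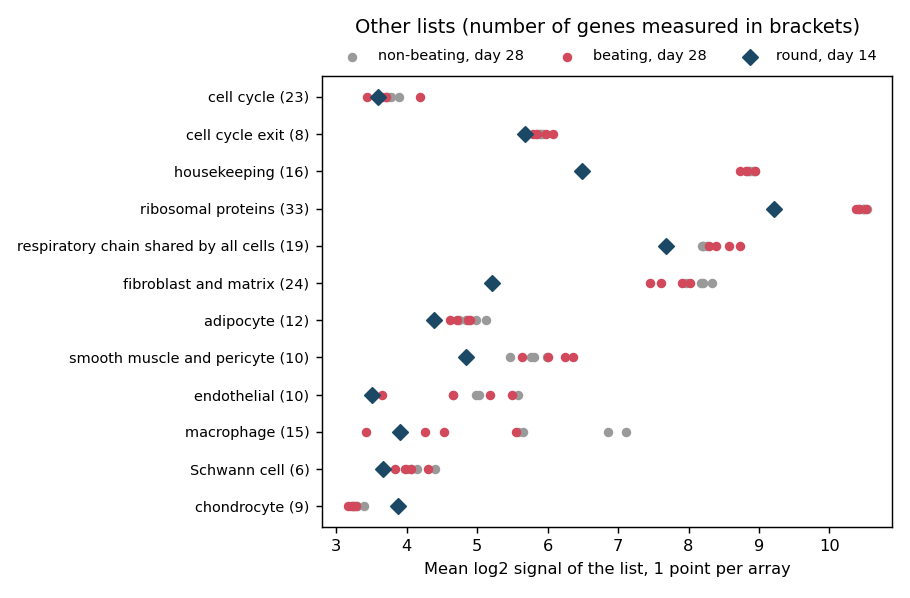
Mean log2 signal (x) of 12 lists of other cell types and shared functions on the 9 arrays, with 1 point per array and the number of genes measured in brackets: the round pool as a diamond, the 4 beating arrays in red and the 4 non-beating arrays in grey. The diamond lies left of all 8 other points except for the cell cycle, macrophage and chondrocyte lists, and the 4 beating points of the endothelial and macrophage lists spread widely.

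The mean signals of the genes that all cells use were lower in round cells than in any other sample, although single genes were not. The mean of 16 housekeeping genes was 6.48 on the round array, 8.73 to 8.94 on beating and 8.86 to 8.95 on non-beating arrays. Eef1a1, a translation factor, was at 10.84 in round cells and 12.08 to 12.40 in beating samples, and B2m at 7.87 against 10.89 to 11.10. The mean of 33 ribosomal protein genes was 9.22 against 10.38 to 10.52 in beating samples, and 9 of the 33 ranked above all 4 beating arrays and 23 below all 4, with Rps29 (12.51 against 12.47 to 12.60) and Rps20 (12.09 against 12.11 to 12.26) at the top of every array. Actb and Rplp0, named after their values were seen, were at 5.47 and 4.53 in round cells and at means of 11.42 and 11.01 in beating samples. Of 14 high housekeeping genes 11 were early, 3 intermediate and 11 ranked below all 4 beating arrays. Over all genes high on day 28, 65.4% were early and 62.6% ranked below all 4. The part of the housekeeping and ribosomal values in the ranks of muscle genes was not tested.

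Genes of fibroblasts and matrix were early about as often as all genes high on day 28, with level not matched. Of 19 that were high, 13 were early, 68.4% against 65.4% of all genes, 5 intermediate and 1 late. The median beating percentile of the list was 92.0, and from 90 to 95, 69.6% of genes outside the muscle lists were early. Among the 5 intermediate genes were Fn1 and Dcn, named after their values were seen, at mean beating percentiles of 99.2 and 97.9. From 99 upward 97.0% of genes outside the muscle lists were early, and from 95 to 99, 87.3%. The round rank of 14 of the 19 was below all 4 beating arrays, which was so for 62.6% of all genes high on day 28, and the median difference was 10.6 percentile points against 4.17. Postn, periostin, a secreted matrix protein, was at 2.96 in round cells and at 10.49, 10.46, 10.76 and 10.82 in beating samples, next to 10.72 to 10.98 in non-beating ones. S100a4, Sparc and Vim were the early genes of highest round rank in this list, at 10.39, 9.95 and 9.41. In the smooth muscle and pericyte list Rgs5, a pericyte gene, was late (3.26 in round cells and 5.41, 7.47, 7.39 and 7.60 in beating samples), and Acta2 and Tagln, at 5.13 and 6.12, were early by rank although Acta2 reached 9.83 to 10.50 in the colonies. Des, which muscle and pericyte lists share, was at 9.52 in round cells and 8.68 to 9.17 in beating samples.

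The endothelial and macrophage lists were uneven among the colonies, and the round pool had a lower mean than all non-beating samples in both. The mean of 10 endothelial genes was 3.51 in round cells, and it ranged from 3.65 to 5.50 over beating and from 4.66 to 5.58 over non-beating arrays. The mean of 15 macrophage genes was 3.90 in round cells, 3.42 to 5.55 in beating and 5.58 to 7.12 in non-beating samples. The round mean of the macrophage list was thus above that of beating replicate 1. Cd68, Laptm5 and Fcer1g, named after their values were seen, stood at percentiles 86.9, 85.9 and 76.3 in round cells, each within its beating range and below all 4 non-beating samples in log2 signal, and the other macrophage genes were below percentile 75. Lyz2, lysozyme of macrophages, was at 3.34 in round cells and at 5.04, 6.62, 7.60 and 9.22 in beating samples, a spread over which the group has no single level. Emcn, an endothelial surface gene named after its values were seen, was at 2.77 in round cells and at 4.92, 9.26, 8.07 and 8.70 in beating samples. Beating replicate 1 had the lowest mean in both lists, and among the muscle genes it was highest for Myl2, Myf6 and Cox8b. Over all muscle lists together it also had the highest mean, 6.18 against 5.97, 5.88 and 5.99 on beating arrays 2 to 4. In the fusion list and in the list of channels and connexins its mean was the lowest of the beating arrays. What part endothelial cells and macrophages have in the ranks of the colonies was not tested.

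Among adipocyte genes, Car3, a carbonic anhydrase of adipose tissue that slow muscle also makes, was early, at 8.97 in round cells and 9.49, 9.23, 8.82 and 9.06 in beating samples, and non-beating samples lay at 3.46 to 4.91 (difference 5.10, SE 0.30, limma adjusted p = 4.6e-05). Cd36, a fatty acid transporter, was early at percentile 92.1, and Fabp4 and Lpl, which mark fat cells, were intermediate. Of 23 cell cycle genes 2 were high on day 28, Pcna and Ccnb2, and both were early, at 7.79 and 5.50 in round cells. Of all 23 genes, 11 ranked below all 4 beating arrays in round cells and 5 above all 4. Over the whole array 7420 of 19938 genes ranked below all 4 and 7987 above. The median percentile of the list was 43.3 in round cells, 58.7 in beating and 54.6 in non-beating samples. The 4 high genes of cell cycle exit were early: Gadd45a, a growth arrest gene, was at 10.17, above the beating values of 9.37 to 9.88, Cdkn1b, a cyclin kinase inhibitor, at 9.26 within 9.12 to 9.84, and Rb1, the retinoblastoma gene, at 6.21 against 7.40 to 7.93. The fourth was Btg2. Over all genes high on day 28, 65.4% were early. In the respiratory chain list all 17 high genes were early, led by Cox6c at 11.89, Ndufa4 at 11.54 and Cox7b at 11.36. The chondrocyte factor Sox9 was early at 5.48.

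With each gene represented by its brightest cluster, the largest changes in rank between round cells and colonies were not in muscle genes. This rests on the choice of cluster for Trdn. A cluster of Trdn that did not represent the gene went from percentile 2.49 in round cells to a beating mean of 94.8. The 12 genes with the largest rise from the round pool to the beating mean were Ppp4r2, Rbbp6, Nus1, Aga, Mgst1, Myo9a, Hacd2, Zdhhc20, Efemp1, Plac8, Ccdc58 and Tmem45a. For Hacd2 and Zdhhc20 the rise rests on the choice of cluster, since with the cluster of highest round value the beating rank was below the round rank (-4.27 and -4.52 percentile points). Ppp4r2, a regulatory subunit of protein phosphatase 4, was at 1.79 in round cells and between 7.60 and 7.86 in beating samples, and Efemp1, a matrix protein, at 2.58 and between 9.34 and 10.19. All 12 also had a mean log2 signal of 6.45 or more in the non-beating samples. The 12 largest falls were Mir100, Mir205, Rdh7, Mir301b, Mir297b, Igha, Npy6r, Tmem25, Snora44, Plcl2, Acbd7 and Kcna10, with round log2 signals from 5.00 to 9.98. Their mean beating percentiles were 51.1 or lower, and 5 of the 12 are clusters at loci of microRNA or small nucleolar RNA, at which the array does not measure the mature small RNA.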

How the data were processed

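Round, beating and non-beating cells were measured on an Affymetrix mouse whole-transcript array after amplification of the RNA with the Ovation Pico WTA system, per the labels. The values are the log2 signals of 33323 transcript clusters on 9 arrays as deposited by the authors. The study's methods describe log2 scaling and mean-centring in BRB-ArrayTools for its analyses. The deposited values are not centred, and their background correction and normalization are not given in the sources used here.

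Gene symbols came from the platform annotation, updated through the gene number to GRCm38.p6. There were 21789 clusters with 1 symbol, 1621 with several and 9913 with none, and 21698 of the first were matched. Clusters without exactly 1 symbol were not named. A gene with several clusters was represented by its brightest cluster, by the mean of the 8 day-28 arrays. Among the muscle genes, 11 were not analysed here for want of such a cluster.

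Percentiles were computed within each array, and limma 3.58.1 (R 4.3.3) set beating against non-beating arrays. On simulated data for this comparison, with 33323 clusters, limma recovered 80 of 100 changes of 1 and 97 of 100 changes of 2 on the log2 scale, with 11 false calls.

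The members and gene lists were chosen with earlier results of these data known. Named were all muscle transcription factors, in each other muscle list up to 4 early genes of highest and 4 late genes of lowest round percentile and up to 2 genes high in round cells only, the muscle genes the study names for round cells, up to 3 early and 3 late genes of each comparison list, the 12 largest rises and falls in rank (predicted genes and olfactory and vomeronasal receptors left out), and the 3 genes nearest the level on either side. Any other gene was named after its values were seen.

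Alternatives covered the normalization, a filter on low signals, the replicate block, a t-test with pooled variance, leaving out each array, the level, the percentile limits and base, and the choice of cluster.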

Additional observations from a re-analysis of the deposited data

Results flagged for a closer look

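Of 102 sets of 4 beating values tested, each a named gene or the mean of a list, 9 held a value that stood apart from the other 3, and chance alone sets apart about 1 in 20. Beating replicate 1 stood apart for Mef2a (7.97), Six4 (3.46), Sntb1 (6.0) and the mean of the dystrophin list (5.99). Beating replicate 2 stood apart for Klhl31 (8.09) and Mef2d (6.46), beating replicate 3 for Eya1 (2.29) and Sspn (5.96), and beating replicate 4 for Eya2 (2.80). All are log2 signals, and those of Eya1, Eya2 and Six4 are dim.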

How the results depend on the processing

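The round pool was 1 sample of 6 cells, so none of its differences has an error. Of the late genes, Myl2 and Gja5 were late under each alternative except the percentile taken among members of the comparison, which left Klhl31 alone late (1 gene) and 51 muscle genes early. Klhl31 was not late with the cluster of highest round value or the median over clusters. Under the remaining alternatives 2 to 4 muscle genes were late. The comparison held 15124 clusters at a level of 4 and 6152 at a level of 6.

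Against non-beating samples, the methods' t-test after adjustment called 491 clusters higher and 375 lower. With only clusters of mean log2 signal 5 or more in a group, 1679 were lower. Leaving out each array in turn gave 569 to 914 higher, lowest without non-beating replicate 2 (569), with 575 without non-beating replicate 3, and 438 to 1023 lower. The counts lower without beating replicate 2 and non-beating replicates 1, 2, 3 and 4 were 631, 547, 438, 473 and 690. With the replicate block 637 were higher and 645 lower. Samples of the same number did not deviate together (r = -0.012, 0.028, -0.0094 and 0.020), so the numbers were not taken as pairs. The replicate block ended the calls of Jam2 (adjusted p = 0.0591), Myh6 (0.0672) and Tbx5 (0.0602), and the t-test those of Jam2 (0.0551), Mef2a (0.0533), Myf6 (0.0507) and Tbx5 (0.105). Muscle genes called higher numbered 114 to 136 throughout.

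The sign of beating minus round percentile reversed for Golga7 among members (-2.21), for Hacd2 (-4.27) and Zdhhc20 (-4.52) with the cluster of highest round value, and among clusters of 1 symbol for Hcn2 (-0.78), Mef2c (-0.023), Musk (-0.38) and Rb1 (-0.35). The cause was not tested.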
